A study of Mus musculus with 272 samples.

Results

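Clustered distal H3K27ac peaks are stretches of the genome where several acetylated sites lie close together, each more than 3 kb from any annotated gene start. A total of 1020 such peaks in 266 clusters were found among 4041 distal H3K27ac peaks (25.2%) and among 24209 H3K27ac peaks of replicate 1 on the assembled chromosomes. Members were chosen by their H3K27ac peak positions alone: a replicate 1 peak had to share at least 1 bp with a replicate 2 peak, lie more than 3 kb from every transcription start site (TSS) of the GENCODE M21 annotation on mm10, and be linked, over gaps of at most 12.5 kb, with enough others to give 3 or more peaks. The other distal peaks fell into pairs (1076 peaks) and isolated peaks (1945 peaks, 1186 of them in a gene body and 759 between genes). Fold enrichment, width and number of H3K27ac peaks therefore describe the members and were not tested.

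The study profiled in vivo CRISPR-Cas9 repair outcomes in mouse muscle stem cells (MuSCs) and, to describe their chromatin, made ATAC-seq libraries and ChIP-seq libraries for H3K4me3, H3K27me3 and H3K27ac, 2 of each, among 272 samples in all. By the extraction protocol in the labels of these libraries, the cells were GFP+ MuSCs sorted from hindlimb muscle of Pax7Cas9 mice, in which a Pax7-driven Cre switches on a Cas9-EGFP knock-in at the Rosa26 locus. The labels of these 8 libraries give skeletal muscle as the tissue, and give no age, strain or treatment. No condition was compared, and 2 libraries of each kind allow no test over samples, so values are given for each replicate. The deposited peak lists hold no read numbers and the depth of the libraries is unknown. Replicates 1 and 2 listed 24217 and 18589 H3K27ac peaks. The accessible sites numbered 140937 and 94574, the H3K4me3 peaks 20519 and 18006, and the H3K27me3 peaks 6080 and 10485. All 13 genes of a MuSC marker list (Pax7, Myf5, Myod1, Cdh15, Vcam1, Calcr and others) had an H3K4me3 peak within 3 kb of a TSS in both replicates, and 12 of them an H3K27ac peak, against 60.8% and 46.6% of all coding genes. Markers of other cell types had H3K4me3 at 5 of 10 fibro-adipogenic, 5 of 10 endothelial, 4 of 9 blood cell, 5 of 10 myofibre and 4 of 10 neuron genes. The H3K27ac count was 3 of 10, 1 of 10, 1 of 9, 3 of 10 and 1 of 10 in the same order.

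Acetylation of lysine 27 on histone H3 marks active promoters and active enhancers, the regulatory elements that act on genes from a distance through bound transcription factors. ATAC-seq finds open chromatin, where such factors can bind, H3K4me3 marks gene starts, and H3K27me3 marks chromatin silenced by Polycomb proteins. Runs of nearby acetylated enhancers are often found around genes that define a cell type, and in MuSCs, the Pax7-expressing cells that repair muscle, those genes include transcription factors and receptors that hold the cells quiescent. Enhancer activity itself was not measured here, so the regions are called peaks and clusters below.

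The accessible sites inside the strongest members are shown first. For each, 200 bp of the plus strand of mm10 are centred on the summit of the strongest ATAC-seq peak of replicate 1 that also overlapped replicate 2. The first 5 belong to the members with the highest H3K27ac fold enrichment by the lower of both replicates. The last 5 are the strongest accessible members of the clusters linked to the MuSC markers Pax7, Sdc4 and Msc, and of the cluster in Runx1. Capitals mark matches, on either strand, to the AP-1 motif TGANTCA, to the MyoD-type E-box CAGCTG, to the other E-box CACGTG and to the RUNX motif TGTGGT.
Zfp36l2, chr17:84110087-84110286: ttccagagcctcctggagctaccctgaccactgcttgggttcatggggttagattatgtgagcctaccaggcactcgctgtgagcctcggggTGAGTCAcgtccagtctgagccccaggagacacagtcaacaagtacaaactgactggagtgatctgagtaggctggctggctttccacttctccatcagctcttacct
Tmem44, chr16:30513659-30513858: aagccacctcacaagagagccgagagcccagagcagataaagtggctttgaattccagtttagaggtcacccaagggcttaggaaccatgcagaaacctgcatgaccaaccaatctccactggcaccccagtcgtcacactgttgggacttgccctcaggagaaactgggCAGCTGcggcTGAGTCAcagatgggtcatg
Wnt7b and Ppara, chr15:85670945-85671144: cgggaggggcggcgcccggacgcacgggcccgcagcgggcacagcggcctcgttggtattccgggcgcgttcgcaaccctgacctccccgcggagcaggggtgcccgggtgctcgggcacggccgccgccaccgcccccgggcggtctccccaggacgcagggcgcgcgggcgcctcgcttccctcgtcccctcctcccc
Nr1d1, chr11:98783448-98783647: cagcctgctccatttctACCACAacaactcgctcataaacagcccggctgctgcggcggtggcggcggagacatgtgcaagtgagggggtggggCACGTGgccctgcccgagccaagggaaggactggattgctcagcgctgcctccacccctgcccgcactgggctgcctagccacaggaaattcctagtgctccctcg
Tmx1 and Frmd6, chr12:70539964-70540163: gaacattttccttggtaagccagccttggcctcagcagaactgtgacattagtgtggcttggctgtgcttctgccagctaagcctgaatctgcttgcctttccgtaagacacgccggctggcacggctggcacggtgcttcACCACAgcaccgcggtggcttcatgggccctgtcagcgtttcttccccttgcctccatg
Pax7 downstream, chr4:139697838-139698037: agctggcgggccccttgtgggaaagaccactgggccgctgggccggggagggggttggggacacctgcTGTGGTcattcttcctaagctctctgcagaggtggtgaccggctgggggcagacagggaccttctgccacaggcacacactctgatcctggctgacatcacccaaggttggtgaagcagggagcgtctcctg
Pax7 intron, chr4:139771348-139771547: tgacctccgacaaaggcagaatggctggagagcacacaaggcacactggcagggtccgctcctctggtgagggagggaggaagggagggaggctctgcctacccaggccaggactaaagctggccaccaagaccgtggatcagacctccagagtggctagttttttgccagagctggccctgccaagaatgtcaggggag
Sdc4, chr2:164432846-164433045: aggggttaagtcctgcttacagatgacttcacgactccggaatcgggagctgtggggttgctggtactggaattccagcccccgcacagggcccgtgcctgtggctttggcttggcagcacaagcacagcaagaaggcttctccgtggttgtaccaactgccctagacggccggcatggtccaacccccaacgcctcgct
Msc, chr1:14775317-14775516: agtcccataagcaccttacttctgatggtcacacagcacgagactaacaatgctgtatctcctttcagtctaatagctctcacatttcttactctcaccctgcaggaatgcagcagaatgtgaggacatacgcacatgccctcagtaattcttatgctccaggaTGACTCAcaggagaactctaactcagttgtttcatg
Runx1, chr16:92620800-92620999: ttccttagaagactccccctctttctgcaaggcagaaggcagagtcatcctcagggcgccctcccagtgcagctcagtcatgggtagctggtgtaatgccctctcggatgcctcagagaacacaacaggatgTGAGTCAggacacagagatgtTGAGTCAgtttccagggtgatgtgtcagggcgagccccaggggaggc
The site downstream of Zfp36l2 held 1 AP-1 match at its centre, the Tmem44 site an AP-1 match beside a MyoD-type E-box, the Msc site 1 AP-1 match and the Runx1 site 2. The Nr1d1 site held the E-box CACGTG, the element bound by the CLOCK and BMAL1 proteins, and a RUNX match. The site between Tmx1 and Frmd6 and the first Pax7 site each held a RUNX match. The second Pax7 site, the Sdc4 site and the site between Wnt7b and Ppara held none of these letters. That last site stood apart in base composition, with 80.5% G and C and 31 CpG dinucleotides against 45% to 64.5% and 2 to 11 in the other 9 windows. The replicate 2 ATAC-seq summit lay 1 to 43 bp away at 9 of the sites and 123 bp away at the site between Tmx1 and Frmd6.

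Most clusters were small. Of the 266, 163 (61.3%) had 3 members, 46 had 4, 31 had 5 and the other 26 had 6 to 16. The span from the first to the last member had a median of 9295.5 bp and ran from 1638 bp (inside Rbpj) to 52637 bp (near Zfp36l2), and 37 clusters spanned 20 kb or more. Members covered a median of 31.7% of the span and were 205 to 8531 bp wide, with a median of 643.5 bp against 626 bp for isolated peaks. Median span grew from 7085 bp at 3 members to 16470 bp at 5 and 22841.5 bp at 7. Together the members held 26.8% of all distal H3K27ac bases.

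Many neighbouring members lay almost side by side. Of 754 gaps, 314 (41.6%) were under 500 bp and 368 (48.8%) under 1 kb, against 180 of 5 kb or more. When peaks with gaps of at most 1 kb were merged into 1 before counting, an alternative chosen after seeing the data, 104 clusters with 366 members were left. In 244 of the 266 clusters the members overlapped 3 or more different replicate 2 peaks, in 21 they overlapped 2, and in the Rbpj cluster all 3 members lay in a single replicate 2 peak. The largest linked gap was 12315 bp and the smallest gap that was not linked was 12557 bp, with 17 linked gaps above 11.5 kb and 27 unlinked ones below 13.5 kb. The 24 members between 3 and 3.5 kb from a TSS had a median fold of 5.75 in replicate 1, and the 171 peaks that were left out at 2.5 to 3 kb had 5.65.

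**Figure D1:**
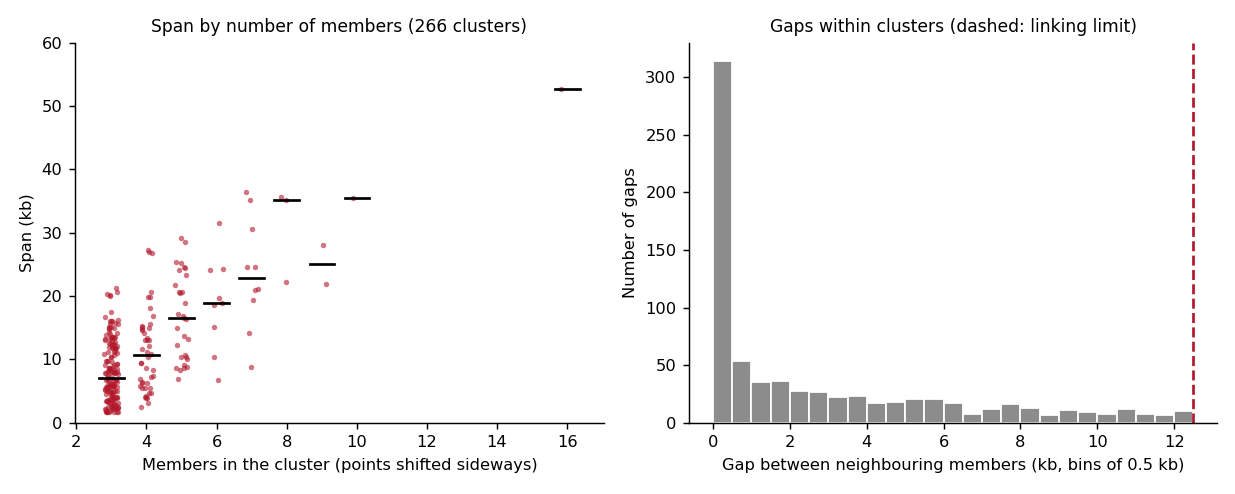
Left, span of each cluster in kb against its number of members, with the median of each size as a black line. Right, number of gaps between neighbouring members by gap length in kb, in bins of 0.5 kb. Clusters of 3 are the most numerous, 314 of the 754 gaps fall in the bin under 0.5 kb, and the single cluster of 16 members is also the widest.

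Of the 12 largest clusters, 7 overlapped a coding gene and 5 lay between coding genes. The largest, chr17:84074037-84126673, held 16 members over 52637 bp with no coding gene in its span, although 1 member touched an annotated exon. It lay between Zfp36l2, an RNA-binding protein that speeds decay of mRNAs, and Haao, an enzyme of tryptophan breakdown. It lay 57257 bp downstream of Zfp36l2 and 226073 bp upstream of Haao. Its members ran from 3.66 to 25.7 in fold in replicate 1 and from 3.52 to 22.1 in replicate 2, and 14 of 16 had ATAC-seq peaks in both replicates. A further cluster of 3 members, chr17:83982679-83993030, lay between the same genes. The Zfp36l2 promoter carried H3K27ac at 21.7 and 16.5 fold in replicates 1 and 2 and H3K4me3 at 39.8 and 28.4, whereas no peak of either mark lay at the Haao promoter in either replicate.

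The next clusters lay mostly inside genes. Sept9, a septin of the cytoskeleton, held 10 members at chr11:117235293-117270823, with maximum folds of 7.19 and 8.46 in replicates 1 and 2, and 5 more in a second cluster at chr11:117311338-117320054. The cluster at chr9:67565362-67587338 held 9 members and began 5658 bp upstream of Tln2, the integrin adaptor talin 2, with maximum folds of 13.2 and 11.0. Lrig1, which restrains signalling by EGF receptors, held 9 members in its body at chr6:94621085-94649101, and 5 more lay at chr6:94773119-94790019, 72961 bp beyond its nearest TSS. At chr7:132718803-132754427, 8 members lay inside Fam53b and inside the long annotated body of Fgfr2, a fibroblast growth factor receptor, which runs from 130162451 to 133123350. Zbtb20, a zinc finger repressor, held 8 members at chr16:43514721-43549922. Another 8 lay far from coding genes at chr3:37903359-37925611, 178868 bp upstream of Gm5148 and 523647 bp downstream of Ankrd50.

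The remaining 5 of the 12 held 7 members each. They included a neighbouring pair of clusters in the interval between Wnt7b, a Wnt ligand, and Ppara, a nuclear receptor for fatty acids, at chr15:85598930-85635344 and chr15:85656867-85681431. Their highest folds were 26.1 and 29.1 in replicate 1 and 17.3 and 21.3 in replicate 2. Ppara had H3K27ac at its promoter (6.90 and 5.52 fold) and Wnt7b had none, with H3K27me3 there at 4.50 and 4.91 fold. Hdac4, a histone deacetylase that holds back MEF2 factors, held a cluster at chr1:92080506-92101441. Runx1 held one at chr16:92619823-92655020, in which all 7 members had ATAC-seq peaks in both replicates. Hspg2, which encodes the basement membrane proteoglycan perlecan, overlapped the last, chr4:137464556-137495175, which contained 2 coding TSSs within its span although each member lay more than 3 kb from them.

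**Figure D2:**
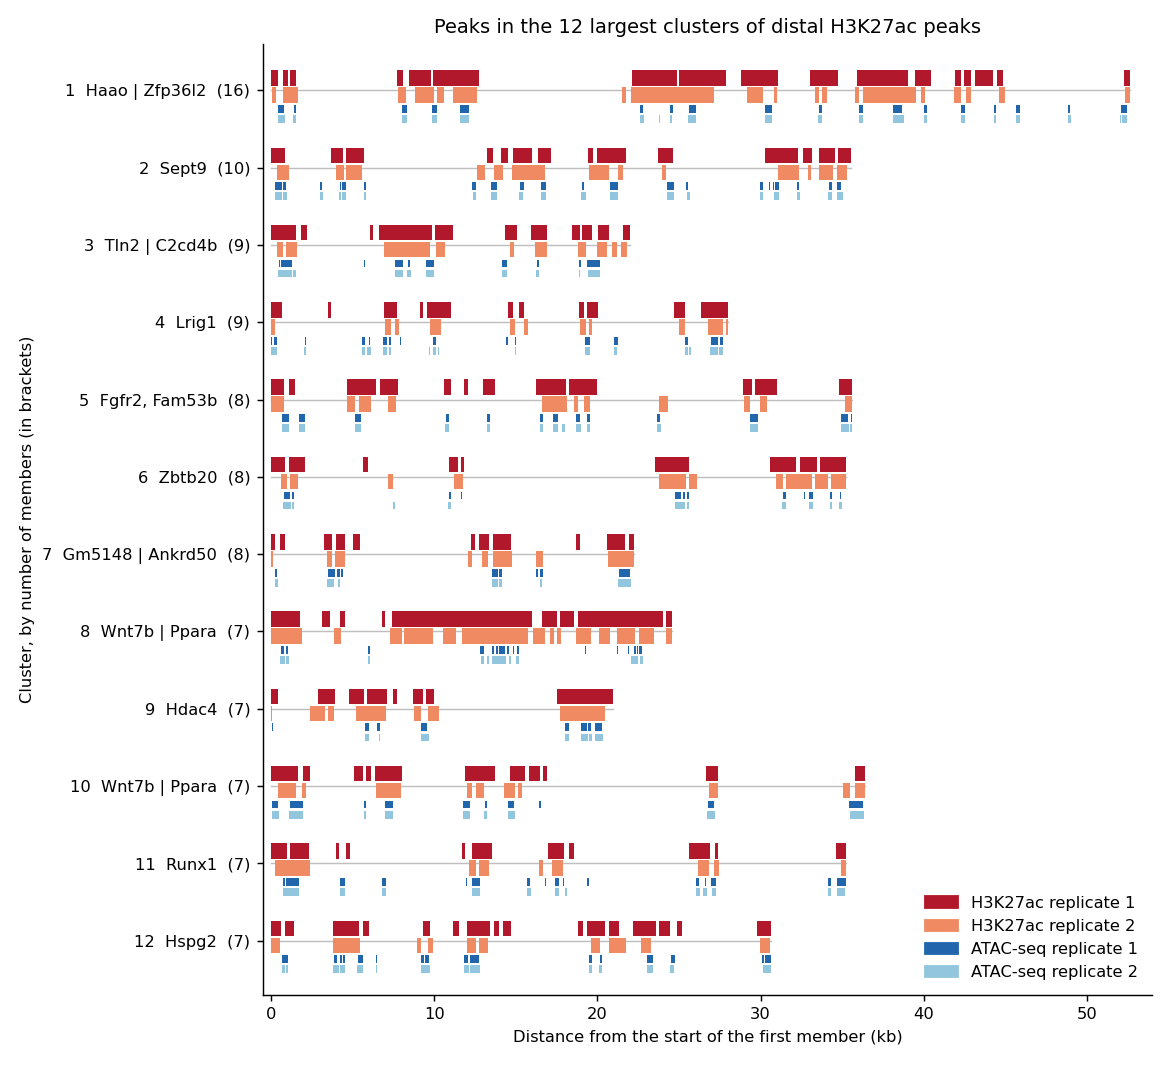
Peaks in the 12 largest clusters, with distance in kb from the start of the first member on the x axis and 1 row for each cluster, named by the genes it overlaps or, where it overlaps none, by its left and right neighbours. Bars show every H3K27ac peak (red, replicate 1 above replicate 2) and ATAC-seq peak (blue) in the span, including replicate 1 peaks that are not members. Replicate 2 lists cover most of the same stretches with different peak edges, and the Wnt7b and Ppara cluster in row 8 is almost filled by acetylation.

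The strongest single members were few. Only 44 of 1020 members (4.31%), in 36 clusters, reached a fold of 10 in both replicates, against 96 of 1945 isolated peaks (4.94%). The peak at chr17:84109928-84113073 in the Zfp36l2 cluster had 25.7 and 22.1 fold in replicates 1 and 2. The peak at chr16:30510427-30514472, which overlaps the end of Tmem44, had 22.99 and 21.6, and the 8531 bp peak chr15:85664310-85672840 between Wnt7b and Ppara had 29.1 and 21.3. The other leading peaks were chr11:98782320-98784601, 6987 bp from the TSS of Nr1d1, a repressor of the circadian clock (22.2 and 19.5), and chr12:70539295-70541807, 79454 bp from the TSS of the endoplasmic reticulum protein gene Tmx1 and 283707 bp from that of the Hippo pathway gene Frmd6 (19.2 and 17.7).

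These peaks differed in the promoter mark. The Wnt7b and Ppara peak overlapped H3K4me3 at 34.7 and 30.8 fold, close to the 39.8 and 28.4 at the Zfp36l2 promoter, and 6 of the 7 members of its cluster overlapped H3K4me3 in both replicates. It overlapped the CpG-rich window printed above. The Tmem44 peak overlapped H3K4me3 at 15.8 and 10.5 fold, the Nr1d1 peak at 6.12 and 4.28, and the Tmx1 and Frmd6 peak at 4.17 and 3.48. The strongest peak of the Zfp36l2 cluster overlapped no H3K4me3 peak in either replicate.

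**Figure D3:**
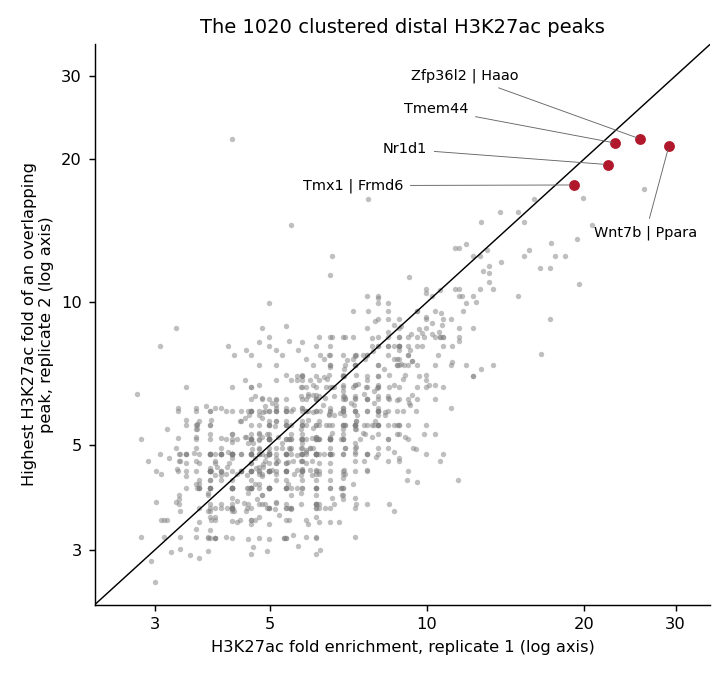
H3K27ac fold enrichment of the 1020 members in replicate 1 (x axis) against the highest fold of an overlapping peak in replicate 2 (y axis), both on log axes, with the line of equal values. The 5 strongest members are red, named by their gene or neighbours, and reach 17.7 fold or more in both replicates.

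Replicate agreement was moderate for the bulk of members. Fold had a median of 5.76 in replicate 1 and 5.15 in replicate 2, and 648 of 1020 members were higher in replicate 1. Spearman's rho between the replicates over the 1020 members was 0.605, a description only, since neighbouring members can share a replicate 2 peak. The member with the highest fold was the same in both replicates in 149 clusters (56.0%). Replicate 2 peaks covered 683717 bp of the spans against 991565 bp in replicate 1 (69.0%), and only 18 clusters had more bases covered in replicate 2. Within a cluster, the strongest member had a median of 1.79 times the fold of the weakest in replicate 1 and 1.63 times in replicate 2.

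Genes were linked to a cluster when their body overlapped the span or when they held the nearest coding TSS on either side. This gave 428 of 21938 protein-coding genes (1.95%), 181 by overlap and 247 as neighbours only. Overlapped genes were long, with a median of 107.7 kb against 17.4 kb for all coding genes. In all, 162 clusters overlapped a coding gene, 147 lay wholly inside one, and 90 overlapped no annotated gene. The spans of 20 clusters held a TSS between members, and 13 of these held a coding one. Of the members, 650 (63.7%) lay in a gene of any type and 70 (6.86%) touched an exon, so most genic members were intronic. The 139 clusters inside exactly 1 coding gene were spread along it, with a median position of 50.1% of its length from the start. The median distance from a span to the nearest coding TSS outside it was 17410 bp, and 21 clusters were more than 100 kb away. The farthest, 4 members at chr15:62320635-62330001, lay 333213 bp from Myc, the growth-promoting transcription factor, and 1478758 bp from Gsdmc, with maximum folds of 12.7 and 14.7; it was named after its values were seen.

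Of 13 MuSC markers, 3 were linked to a cluster, against 1.95% of all coding genes. All gene lists used were chosen with earlier results of these data known, so their shares are descriptions and no evidence of enrichment. Pax7, the transcription factor that defines these cells and drives the Cre used to mark them, was linked to 2 clusters with 11 members. One of these lay inside the gene at chr4:139743617-139772762 and the other 17267 bp downstream of its end at chr4:139688234-139719794. From left to right, the downstream members had folds of 4.84, 7.59, 2.95, 3.002, 7.03 and 3.23 in replicate 1 and 4.56, 7.59, 2.85, 2.57, 7.53 and 2.97 in replicate 2. The same 3 members, of 2964, 5027 and 2593 bp, were the highest in both replicates. Inside the gene the 5 members had 4.94, 3.12, 3.85, 3.51 and 8.92 fold in replicate 1 and 5.28, 3.47, 3.47, 2.93 and 7.41 in replicate 2, and the member nearest the TSS was the highest in both. These regions were broad: members covered 12874 of 31561 bp downstream, the widest of them 5027 bp. No member passed a fold of 9 in either replicate. Some lay above and others below the median of all clustered members, 5.76 fold in replicate 1 and 5.15 in replicate 2. The Pax7 promoter had 15.02 and 14.7 fold.

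Sdc4, the surface proteoglycan syndecan 4 used to sort MuSCs, held 4 members in its body at chr2:164431929-164437381. Their folds were 8.77, 10.7, 4.98 and 4.83 in replicate 1 and 7.38, 4.78, 4.41 and 6.25 in replicate 2, so the order of the members differed between replicates. Msc, the bHLH repressor musculin, had a cluster of 3 at chr1:14772825-14776381, 16832 bp upstream. Its members had 6.81, 6.23 and 10.6 fold in replicate 1 and 5.84, 3.01 and 10.6 in replicate 2, with the third highest in both. The other 10 markers, Myf5 and Myod1 among them, were not linked. The count depended on the threshold. With −log10 q of at least 5 required in both lists only Pax7 was left. Only Pax7 was left as well when gaps of at most 1 kb were merged first. The gaps were 567 and 300 bp in the Msc cluster and 179, 1713 and 171 bp in the Sdc4 cluster. With a distance of 1 kb from start sites Myf5 and Heyl were added. With gaps of up to 20 kb Spry1, an inhibitor of FGF signalling, was added. Without replicate 2, with all replicate 1 peaks used, 7 markers were linked.

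The 23 myogenic transcription factors were also listed with earlier results known. Of them 6 were linked, 4 by overlap, against 1.95% of all coding genes linked. Besides Pax7 and Msc these were Runx1, Nfix and Nfia, which held 7, 8 and 7 members, and Tcf4, an E protein that pairs with myogenic bHLH factors. Nfix, which in muscle switches the embryonic to the fetal programme, held 2 clusters with maximum folds of 8.05 and 7.72 (replicates 1 and 2) in the larger and 6.13 and 6.33 in the other. Nfia held 2 clusters as well, the stronger with 15.3 and 14.8. The Tcf4 link rests on distance alone, since its TSS was the nearest on that side at 896949 bp and the cluster lay 14651 bp from Mc2r, an adrenal hormone receptor. In Runx1, the member folds were 7.71, 16.1, 6.52, 6.58, 6.58, 3.60 and 4.22 in replicate 1 and 16.5, 16.5, 7.38, 5.29, 8.46, 5.41 and 4.78 in replicate 2. The first 2 members shared a replicate 2 peak. Its promoters differed between libraries, with 78.2 fold in replicate 1 and 16.9 in replicate 2. Pax3, Myf5, Myf6, Myod1, Myog and the Mef2 and Tead genes listed were not linked.

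The Notch pathway keeps MuSCs quiescent. Of its 14 genes, also listed with earlier results known, 5 were linked, against 1.95% of all coding genes. Receptors were represented by Notch2, with 6 members inside the gene at chr3:98039683-98046476, and Notch1, with a cluster of 3 at chr2:26531336-26535442, 14672 bp upstream. Notch2 members were uniformly weak, from 3.02 to 5.14 fold in replicate 1 and 3.77 to 5.15 in replicate 2, beside a promoter of 39.5 and 31.5. The Notch1 cluster reached 9.20 and 6.25, and its gaps were only 175 and 279 bp. Rbpj, the DNA-binding partner of the cleaved receptor, held the shortest cluster of all, with 8.81 and 8.09 fold and gaps of 236 and 374 bp. Of the ligands, Dll1 was linked at 158632 bp to a cluster that lay nearer to Ermard, 103118 bp downstream of that gene. The gaps in this cluster were 845 and 12081 bp. Of the targets, Hey1 had 4 members 45849 bp upstream with 6.13 and 5.62 fold. With gaps of at most 1 kb merged first, the Notch1, Rbpj and Dll1 clusters would each hold fewer than 3 peaks. Jag1, Dll4, Notch3, Heyl, Hes1, Hes6, Nrarp, Maml1 and Maml2 were not linked.

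Receptors and signalling genes, also listed with earlier results known, gave 6 of 21, against 1.95% of all coding genes. Fgfr1 held 5 members (maximum 9.02 and 7.36 fold in replicates 1 and 2) and Fgfr4 had 4 from 2304 bp downstream of its end, the weakest of them at 8.05 in replicate 1 and 6.21 in replicate 2 and the strongest at 15.7 and 12.9. All 4 of these overlapped H3K4me3 in both replicates. Errfi1, a feedback inhibitor of EGF receptors, had 8 members in 2 clusters upstream, with 19.9 and 16.6 fold at the highest. Egfr itself held 3 (8.81 and 5.52). Cxcr4, the chemokine receptor, had 3 at 78435 bp downstream (5.37 and 5.98), and Sdc4 is also on this list. After merging gaps of at most 1 kb, the Egfr, Cxcr4, Sdc4 and smaller Errfi1 clusters would each hold fewer than 3 peaks. The Fgfr1, Fgfr4 and larger Errfi1 clusters would still hold 3 or more. Met, Igf1r, Il6st and the TGF-beta, Frizzled and Sprouty genes listed were not linked.

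AP-1 factors, which are induced when MuSCs are isolated, gave 1 of 10, against 1.95% of all coding genes. Fos had 4 members at chr12:85485404-85498484, 8130 bp downstream, with folds of at most 9.96 and 8.83 in replicates 1 and 2, beside a promoter of 22.1 and 20.5. The gaps in this cluster were 172, 10603 and 379 bp. After merging gaps of at most 1 kb it would hold fewer than 3 peaks. Fosb, Fosl2, Jun, Junb and Jund had H3K27ac promoter peaks in both replicates and no linked cluster. Extracellular matrix genes gave 2 of 21, against the same 1.95%. These were Col4a1, a basement membrane collagen (7.52 and 5.88 fold), and Sparc, a matrix-binding glycoprotein (10.3 and 6.25). Of other cell types, none of 10 fibro-adipogenic, 9 blood cell, 10 myofibre or 10 neuron markers was linked. Egfl7, 1 of 10 endothelial markers, was linked 44571 bp from the cluster that lies nearer to Notch1, and its promoter had no H3K27ac peak in either replicate.

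Several genes had 3 or 4 clusters and were named after their values were seen. Zbtb20 held 4 clusters with 18 members inside its body, the highest replicate 1 fold being 16.6, beside 7.90 as the highest of that cluster in replicate 2. Irf2bp2, a transcriptional cofactor, was linked to 4 clusters with 18 members. Of these clusters, 3 lay in the interval up to Tomm20, a mitochondrial import receptor, with maximum folds of 12.8 and 11.6. Those 3 were nearer to Tomm20, at 9713 to 79651 bp, than to Irf2bp2, at 232492 to 319709 bp. Zfp36l1, the relative of Zfp36l2, was linked to 3 clusters with 13 members, 2 of them inside Rad51b and the nearest 201237 bp away. Gas1, a surface protein tied to growth arrest, and Tut7 flanked 3 clusters with 12 members, of which the strongest reached 14.9 and 10.3. Zhx2, a repressor, overlapped 3 clusters with 11 members. With gaps of at most 1 kb merged first, Zbtb20 and Zhx2 would each keep only their largest cluster, and Gas1 and Tut7 none. The Irf2bp2 cluster outside the interval up to Tomm20 would also hold fewer than 3 peaks. The 3 clusters in that interval and the 3 linked to Zfp36l1 would still hold 3 or more. The nearest-gene rule cannot tell which of 2 neighbours, if either, a cluster acts on, and this was not tested.

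Promoters of linked genes carried active marks in a higher share than those of all coding genes, given here without a test. An H3K27ac peak within 3 kb of a TSS in both replicates was present at 310 of 428 linked genes (72.4%), against a background of 46.6% of all coding genes. By replicate the share of linked genes was 75.7% and 72.4%, against 50.1% and 47.02% of all. For H3K4me3 the share was 78.7% against a background of 60.8%, and for ATAC-seq 86.2% against 67.8%. For H3K27me3 it was 3.04%, or 13 genes, against 4.81%. The H3K27ac share was 82.3% for overlapped genes and 65.2% for genes that only flanked a cluster. Linked genes were not independent of each other, since neighbours share a cluster.

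The share of peaks that overlapped accessible chromatin was lower for clustered members than for isolated distal peaks, as a description of these libraries without a test. ATAC-seq peaks of both replicates were found at 705 of 1020 members (69.1%), at 73.1% of peaks in pairs, at 80.1% of isolated peaks and at 75.5% of all distal peaks. By replicate the share was 71.6% and 71.6% for members and 82.8% and 82.4% for isolated peaks, a difference of −11.3 and −10.8 percentage points. Both ATAC-seq libraries were scored on the same H3K27ac peaks, so their closeness does not measure how certain the difference between classes is. The difference depended on peak width. Of peaks under 400 bp wide, 39.8% and 40.6% of members overlapped ATAC-seq in replicates 1 and 2, against 59.5% and 62.3% of isolated peaks. Between 400 and 800 bp the shares were 71.6% and 71.9% against 84.3% and 82.7%, and between 800 and 1600 bp they were 88.2% and 87.2% against 95.5% and 94.1%. At 1600 bp or more no deficit was seen, with all 105 members against 99.3% and 98.7% of 149 isolated peaks. The difference was also smaller with a longer reach. Within 500 bp of the peak, 88.8% of members and 94.2% of isolated peaks had ATAC-seq in both replicates, a difference of −5.37, and it was −5.06 when peaks up to 1 kb apart were merged first.

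Read by cluster, nearly every span held an accessible site. A span pools 3 or more members and the gaps between them, and no spans of like length were compared. All members overlapped ATAC-seq peaks of both replicates in 71 clusters and no member did in 4, but only 1 of 266 spans held no ATAC-seq peak shared by both replicates. The spans contained 1337 shared ATAC-seq peaks, of which 199 (14.9%) lay outside every H3K27ac peak. The share of accessible members was 69.3% for clusters of 3, 70.7% for clusters of 4, 65.2% for clusters of 5 and 70.3% for clusters of 6 or more.

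The share with the promoter mark was lower in clusters as well. H3K4me3 peaks of both replicates overlapped 112 members (11.0%), 14.2% of pairs and 27.2% of isolated peaks, against 19.6% of all distal peaks. The H3K4me3 libraries differed here, with 20.3% of members in replicate 1 and 11.2% in replicate 2, but isolated peaks were higher in each (39.2% and 27.6%). Isolated intergenic peaks were the highest at 38.3% and isolated peaks in gene bodies had 20.1%. Of peaks between 400 and 800 bp wide, 14.9% and 8.11% of members and 38.1% and 26.5% of isolated peaks overlapped H3K4me3 in replicates 1 and 2. The 112 members lay in 67 clusters. Whether some of them are starts of transcripts missing from the annotation was not tested. Fold enrichment, in contrast, was the same in the middle, with medians of 5.76 and 5.15 in both clustered and isolated peaks.

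**Figure D4:**
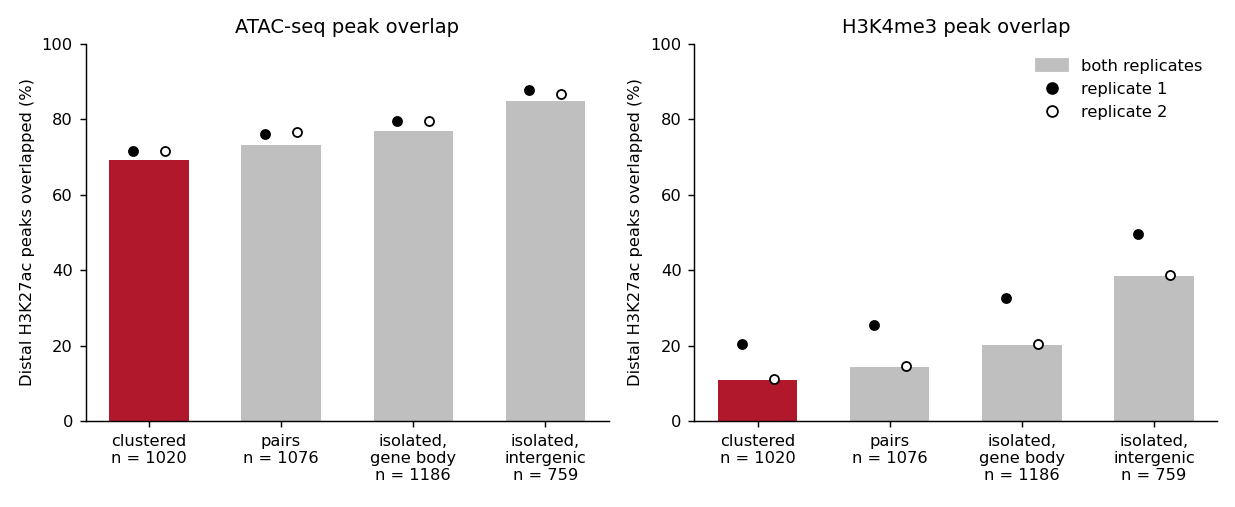
Share of distal H3K27ac peaks, in percent, that overlap an ATAC-seq peak (left) or an H3K4me3 peak (right), for clustered members, pairs and the 2 classes of isolated peaks. Bars give overlap in both replicates and points the share in each replicate, and clustered members have the lowest share of each.

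The silencing mark was almost absent, in clusters as in the other distal H3K27ac peaks. A single member of 1020 (0.098%) overlapped H3K27me3 in both replicates, against 0.0929% of pairs, 0.0514% of isolated peaks and 0.0742% of all distal peaks. Only 2 spans held an H3K27me3 peak of either replicate. One was a cluster of 3 at chr15:102959236-102962926 between the limb patterning genes Hoxc11 and Hoxc10, with H3K27ac at 4.75 to 5.12 fold in replicate 1 and 5.15 to 6.68 in replicate 2. It held H3K27me3 peaks in replicate 2 only (3 against 0), no ATAC-seq peak in either replicate, and H3K4me3 at all 3 members in both. The other, chr2:73003293-73013030, lay 16577 bp from Gm11084 and held 1 H3K27me3 peak in each replicate.

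Motif letters were counted in 300 bp windows at the accessible sites of 711 members, some of which share a site with their neighbour. The MyoD-type E-box CAGCTG was in 48.5% of them, in 51.0% of 798 windows of pairs, in 46.4% of 1568 isolated windows, in 36.9% of 40591 distal ATAC-seq peaks without H3K27ac and in 19.3% of 14985 ATAC-seq peaks over a TSS. The AP-1 motif TGANTCA, bound by Fos and Jun dimers, was in 34.5% of clustered, 40.98% of paired, 29.8% of isolated, 31.2% of unacetylated distal and 6.60% of TSS windows. The RUNX motif TGTGGT was in 20.8%, 22.4%, 21.3%, 25.2% and 10.9% of the same classes. ETS letters CCGGAAG, common at promoters, were in 3.94% of clustered and 15.3% of TSS windows. Median G and C content was 52.7% in clustered and 52.3% in isolated windows, 50.7% in unacetylated distal ones and 65.0% at TSSs. Within windows of 50% to 60% G and C, the MyoD-type E-box was in 52.3% of clustered, 52.1% of isolated and 42.1% of unacetylated distal windows, and at 40% to 50% in 38.05%, 41.7% and 30.2%, so both acetylated classes lay above the unacetylated share in each band, and isolated windows lay above clustered ones in the lower band. Between 50% and 60% AP-1 was in 34.98%, 27.8% and 27.01%, and at 40% to 50% it was in 40.98%, 38.1% and 37.95%, a wider difference in the first band. No test was made of these shares, and a match is not evidence of binding.

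**Figure D5:**
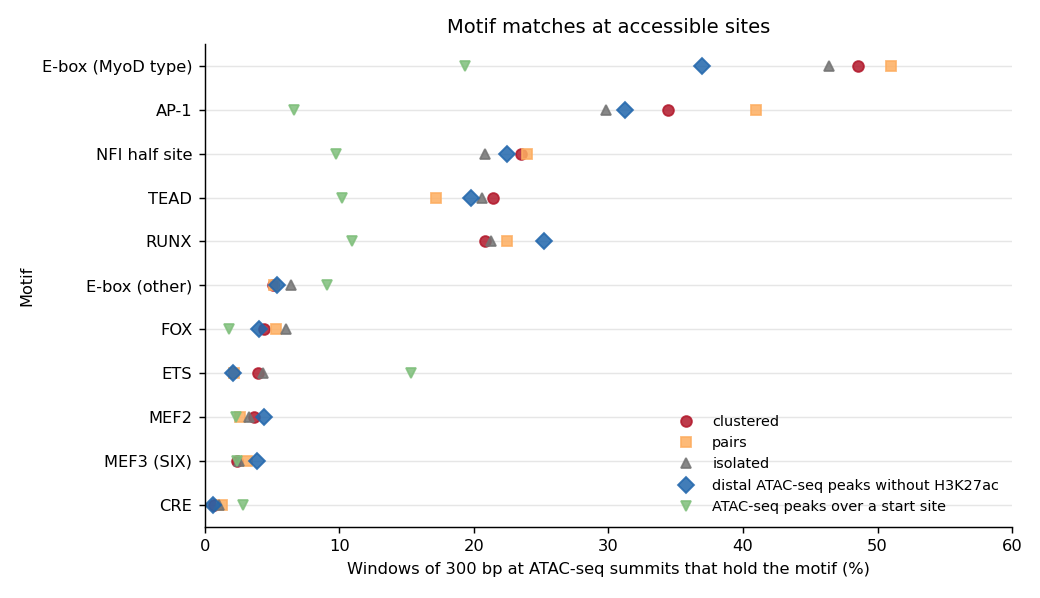
Share of 300 bp windows at ATAC-seq summits, in percent, that hold each motif on either strand, for clustered, paired and isolated distal H3K27ac peaks, distal ATAC-seq peaks without H3K27ac and ATAC-seq peaks over a TSS. The 3 acetylated classes lie together for most motifs. The TSS windows are lower at several, such as AP-1, MyoD-type E-box, RUNX, TEAD and NFI letters, and higher at ETS letters.

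Clusters were spread unevenly over chromosomes. Chromosomes 2 and 4 had 22 each, chromosome 14 had 3, and chromosomes X and Y had none. On chromosome X, 25 distal peaks shared by both replicates were found among 424 H3K27ac peaks of replicate 1. The share of distal peaks in clusters ran from 9.57% on chromosome 10 and 13.8% on chromosome 14 to 34.6% on chromosome 9 and 33.5% on chromosome 8, where the clusters included those of Tln2, Nfix, Fgfr1, Col4a1 and the interval between Irf2bp2 and Tomm20.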

How the data were processed

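Nuclei and chromatin of sorted MuSCs were profiled in 8 libraries. Per the labels and the study's methods, the authors trimmed reads with Trim Galore 0.6.10, aligned them to mm10 with BWA 0.7.17-r1188, removed duplicates, reads of mapping quality under 30 and blacklisted regions, corrected the Tn5 offset with deepTools 3.5.5 and called peaks in each library separately with MACS2 2.2.6. The deposited lists give for each peak a fold enrichment (a ratio over local background) and the −log10 of its p-value and q-value. No read counts were used. Peaks on 21 assembled chromosomes were compared with GENCODE M21 in Python 3.11.15 (NumPy 2.4.6, SciPy 1.17.1), with 1 bp counted as overlap. The linking code was checked on simulated peaks. The text names the 12 clusters with most members (ties by summed width), with overlapped and flanking genes, the 5 members of highest fold by the lower replicate, and listed genes linked to a cluster. Members and lists were chosen with earlier results of these data known. Alternative gaps, distances, thresholds and overlaps were tried. The samples of edited target sites were not used here.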

Additional observations from a re-analysis of the deposited data

How the results depend on the processing

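The number of clusters (266) was 78 with −log10 q of at least 5, 103 with 4 or more peaks, 104 with gaps of at most 1 kb merged first, and 464 to 879 when an H3K27ac replicate was left out. The number of members (1020) was 645 with gaps of at most 5 kb, 283 with −log10 q of at least 5, 531 with 4 or more peaks, 366 after merging, and 1884 to 3859 without a replicate. The ATAC-seq share (69.1%) was 61.5% on replicate 2 peaks, 64.0% and 70.1% with gaps of 5 and 20 kb, 67.6% with 1 kb from start sites, 69.3% with coding start sites, 82.3% with −log10 q of at least 5, 73.6% with 50% overlap, 68.9% with 4 or more peaks, 68.2% with ATAC-seq peaks of −log10 q of at least 5, 88.8% within 500 bp, 77.6% after merging, and 50.8% to 71.6% without a replicate. The difference from isolated peaks (−10.9 percentage points) was −12.1 on replicate 2 peaks, −16.3 and −9.91 with gaps of 5 and 20 kb, −12.8 with coding start sites, −7.68 with −log10 q of at least 5, −8.72 with 50% overlap, −9.81 with ATAC-seq peaks of −log10 q of at least 5, −5.37 within 500 bp, −5.06 after merging, and −13.1 to −10.2 without a replicate, and did not reverse in any of these. The H3K4me3 share (11.0%) ran from 7.41% to 20.3% without a replicate, the highest being without H3K4me3 replicate 2. MuSC markers linked (3) were 5 with 1 kb from start sites, 1 with −log10 q of at least 5, 1 after merging and 3 to 7 without a replicate. Merging and the 500 bp reach were chosen after seeing the data. The causes were not tested. No paired analysis was possible because no groups were compared and no result comes from a test. The lists hold no read depth, so the depth behind each share is unknown.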
